A study of Homo sapiens with 6 samples.

Results

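Serine palmitoyltransferase and the genes that act directly around it were followed here through conversion of B cell leukemia cells into macrophages, with and without CTCF. The set comprised 10 genes of 30017 symbols in the count table: SPTLC1, SPTLC2, ORMDL1, ORMDL2, ORMDL3, CERS2, CERS5, CERS6, SGMS1 and UGCG. It was selected on measured values, since SPTLC2 was taken for its rise between the control and the CTCF-depleted libraries at 96 h, and the other 9 genes were taken for their place in the same pathway. The value of SPTLC2 in that comparison is therefore a description without a test, and so are its values in the comparisons that share libraries with it. The question for the other 9 genes was whether they changed with SPTLC2.

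RNA-seq was performed on BLaER cells, a B cell leukemia line that converts into macrophage-like cells when an exogenous CEBPA is switched on. All 6 libraries came from 1 subclone (CTCF-AID) whose CTCF protein is fused to a degron and is marked for degradation by IAA, the auxin indole-3-acetic acid. There were 2 biological replicates of uninduced cells without treatment (0 h), 2 of cells 96 h after addition of estradiol, IL-3 and CSF-1 without IAA (96 h control) and 2 of cells at 96 h that received IAA together with the same factors (96 h CTCF-depleted). Every group thus carried the degron. Effects of IAA itself and of CTCF loss cannot be told apart, since no cells without the degron were given IAA in these libraries.

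Sphingolipids are membrane lipids built on a ceramide core. Their synthesis starts in the endoplasmic reticulum, where serine palmitoyltransferase joins serine to palmitoyl-CoA. SPTLC1 and SPTLC2 are subunits of this enzyme, which sets the pace of the pathway, and the ORMDL proteins bind and inhibit it when ceramide is plentiful. Ceramide synthases then attach fatty acids of different length, and ceramide is converted in the Golgi to sphingomyelin by SGMS1 or to glucosylceramide by UGCG. Macrophages handle large amounts of these lipids because they degrade the membranes of engulfed cells in lysosomes.

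Total counts ranged from 9273470 to 12718780 per library, and 14758 genes had enough counts to be tested, all 10 members among them. The replicates of each group were used as separate samples, since the study describes them as biological replicates. Chi-square values of 1.71 to 2.69 per degree of freedom set their counts apart beyond sampling noise, which cannot show that the cultures were independent. The common coefficient of variation between replicates in the fit was small, 3.96%, and the low p-values below rest on this spread. The labels were checked against markers: all 12 B cell markers were lower and all 12 macrophage markers higher in 96 h control than in 0 h libraries. Of 6 T cell markers, CD3D and CD3G had 0 counts in every library, CD3E and CD8A had at most 2, and CD2 (40 and 38 counts) and CD4 (25 and 19 counts) were called higher in control than in 0 h libraries, where both had 0. CTCF itself had 2048 and 1875 counts in the control and 2062 and 2051 in the depleted libraries, but the degron acts on the protein and its RNA does not check the depletion. The study checked it separately, by mapping where CTCF was bound in treated and control cells.

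SPTLC2 (ENSG00000100596.8) spans chr14:77505997-77616637 on the minus strand of hg38. Its counts were 730 and 972 at 0 h, 1482 and 1407 in the control and 3651 and 3597 after depletion. Scaled to library size as CPM, these correspond to 75.3 and 72.9, 130.8 and 130.3, and 338.1 and 331.4. The 3 groups did not overlap, and the depleted libraries were the highest. Separation from 0 h was common: of 14758 genes tested, 6476 had both control libraries above both 0 h libraries and 6323 had both below. On the log2 scale the difference between depleted and control libraries was 1.36 (SE 0.050, 95% interval 1.257 to 1.459), a fold of 2.56. Because SPTLC2 was chosen by this difference, the interval describes the spread between libraries and is no test against 0. Between control and 0 h the difference was 0.82 (SE 0.057, fold 1.76), so that the gene was already higher after conversion with CTCF present. The sum over both steps was 2.18 (SE 0.054), a fold of 4.52.

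The promoter of SPTLC2 is shown because it is the one gene of the set with a large difference in the depleted cells. The 250 bases before the start site, at chr14:77616638-77616887 in RefSeq's annotation of GRCh38.p14, read on the minus strand from 5′ to 3′. Capitals mark the CCAAT motif, which lies on the opposite strand as ATTGG, and the motif GGGCGG, which lies on the opposite strand as CCGCCC.
SPTLC2 promoter: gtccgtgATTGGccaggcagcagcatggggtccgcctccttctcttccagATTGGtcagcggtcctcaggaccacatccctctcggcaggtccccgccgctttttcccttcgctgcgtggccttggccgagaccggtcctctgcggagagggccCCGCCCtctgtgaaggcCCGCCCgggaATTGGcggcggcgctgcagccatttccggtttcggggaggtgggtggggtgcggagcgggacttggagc

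The CCAAT motif, searched as that of NFY, occurred 3 times, starting 243, 200 and 69 bases before the start site. GGGCGG occurred 2 times, 96 and 79 bases before it. Motifs of C/EBP (TTGCNNAA), EGR, ETS, NRF1 and the E-box were searched too and had 0 matches in the SPTLC2 window. They were found in 1.9% (NRF1) to 10.5% (C/EBP) of all windows. Among all 35116 promoter windows of 300 bases, which include 50 bases after the start, 34.6% held at least 1 CCAAT on either strand, whichever other motif it overlapped, and 3.26% held 3 or more. The cutoff of 3 is the count of SPTLC2 itself, for a motif picked after its matches were seen, so this share is no test of the promoter. GGGCGG was found in 45.0% of the windows and in all 9 members with a promoter entry. SPTLC2, ORMDL1, ORMDL2 and CERS6 held a CCAAT. A core of the CTCF motif, spelled CCANNAGNNGGC and searched on both strands, was in none of the promoter windows of these 9 genes and in 2.41% of all windows. The SPTLC2 window had a GC content of 69.3%, compared to a median of 58.7% over all windows. A match describes letters in the window and not a bound site. Likewise, the lack of a match to this 1 core in 300 bases does not show that a promoter has no CTCF site nearby.

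Of the 9 other genes, 0 passed the thresholds of adjusted p under 0.01 and an absolute log2 fold change over 0.6 between depleted and control libraries (edgeR's quasi-likelihood test). Over all genes tested, 5.41% were called higher and 7.03% lower. The median log2 fold change of the 9 genes was 0.21, against -0.03 over all genes. Their 95% intervals ended at 0.573 or lower. Without the threshold on fold, 2 of 9, CERS6 and SGMS1, had an adjusted p under 0.01 and were higher, where 12.0% of all genes were. The adjusted p of SGMS1 was 0.0434 without depleted replicate 2 and 0.0301 with DESeq2, and that of CERS6 was 0.0122 without control replicate 1. At an adjusted p under 0.05, 5 of 9 were higher, where 16.1% of all genes were. This count was 2 without control replicate 2 and with DESeq2 (CERS6 and SGMS1 each time), 3 without control replicate 1 and 4 without either depleted replicate.

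Both depleted libraries lay above both controls in 6 of the 9 genes and below them in 0. Over all genes, 30.1% lay above and 37.8% below in this way. The B cell markers summed to 446.6 to 448.2 CPM in the control and 388.1 to 400.9 CPM in the depleted libraries, with 2 of 12 called lower, and none of them was at 0 in every library. Of these 12, 2 lay above both controls and 8 below. The macrophage markers summed to 6672 to 6900 and 6008 to 6066 CPM, with 1 of 12 called higher and 2 lower. Most of this sum was LYZ (mean 4527 CPM in the control and 4158 in the depleted libraries), followed by CTSB (1247 and 789.4). The markers went both ways, with 6 of 12 above both controls, 5 below and a median log2 fold change of 0.13. Fewer cells of a type and less RNA per cell cannot be told apart in bulk libraries, and the part of these shifts in the values of the sphingolipid genes was not tested.

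**Figure D1:**
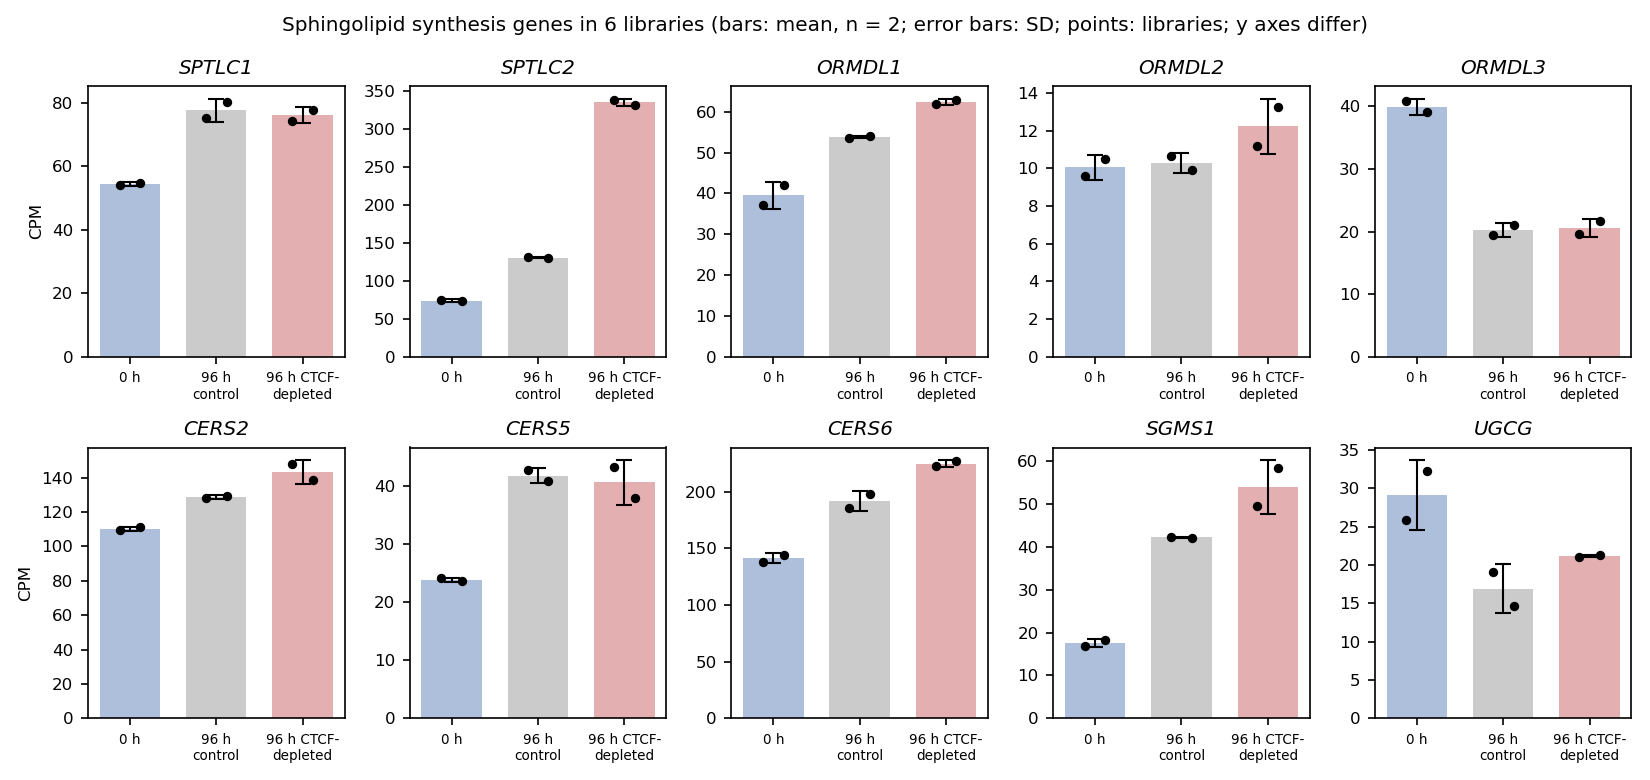
CPM of the 10 genes (y axes, each on its own scale) in 0 h, 96 h control and 96 h CTCF-depleted libraries, with bars for the mean of 2 libraries, error bars for the SD and points for libraries. SPTLC2 stood at 334.7 CPM in the depleted libraries, compared to 130.5 in the control and 74.1 at 0 h, whereas SPTLC1, ORMDL3 and CERS5 overlapped between the groups at 96 h.

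SPTLC1, the partner subunit without which SPTLC2 does not form the enzyme, lies at chr9:92000087-92115413 on the minus strand. It was measured at 54.1 and 54.9 CPM at 0 h, 75.1 and 80.2 in the control and 74.3 and 77.8 in the depleted libraries. The groups at 96 h overlapped, and both lay above 0 h. Depleted and control libraries differed by -0.03 on the log2 scale (95% interval -0.175 to 0.115, adjusted p = 0.787). The difference between control and 0 h was 0.51 (SE 0.074, adjusted p = 1.79e-08), short of the fold threshold.

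SPTLC2 and SPTLC1 therefore stood in different ratios in the 3 groups. To compare levels between genes, CPM were divided by the length of all annotated exons of a gene in kb. Per kb, SPTLC2 was 1.20 and 1.14 times SPTLC1 in the 0 h libraries, 1.501 and 1.40 times in the control and 3.92 and 3.67 times in the depleted libraries. The mean ratio was 1.17 ± 0.0398 (SD, n = 2) at 0 h, 1.45 ± 0.0712 in the control and 3.80 ± 0.180 in the depleted libraries. With the length of the longest transcript instead, the ratios were 0.833, 1.03 and 2.70, so that the gene with the higher level at 0 h depends on the length used. These ratios rest on the libraries that chose SPTLC2 and were not tested.

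SPTLC3, an alternative to SPTLC2 in the enzyme, is no member of the set but takes the same place in it. It fell from 262 and 352 counts at 0 h to 53 and 52 in the control libraries, a log2 fold change of -2.49 (SE 0.155, adjusted p = 1.86e-21). In the depleted libraries it had 69 and 72 counts, a difference from the control of 0.46 (adjusted p = 0.0616). SPTSSA, a small subunit that activates the enzyme, had log2 fold changes of -0.14 (adjusted p = 0.251) with depletion and -0.01 between control and 0 h. The other small subunit, SPTSSB, had 0 counts in every library.

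The 3 ORMDL genes, whose products restrain the enzyme, did not move as 1 group. ORMDL1 (chr2:189770267-189784364, minus strand) had 37.2 and 41.9 CPM at 0 h, 53.7 and 54.0 in the control and 61.9 and 62.9 in the depleted libraries. These groups did not overlap. Its log2 fold change with depletion was 0.21 (SE 0.078, 95% interval 0.058 to 0.370, adjusted p = 0.0241), and that between control and 0 h was 0.44 (adjusted p = 3.88e-06), neither past both thresholds.

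ORMDL2 (chr12:55818041-55821879, plus strand) was the gene of the set with the fewest counts, 93 and 140 at 0 h, 121 and 107 in the control and 121 and 144 in the depleted libraries. Its CPM were 9.59 and 10.5, 10.7 and 9.91, and 11.2 and 13.3. The difference with depletion was 0.25 on the log2 scale with an interval from -0.067 to 0.564 (adjusted p = 0.221). Between control and 0 h the libraries overlapped (log2 fold change 0.03, adjusted p = 0.876).

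ORMDL3 (chr17:39921041-39927601, minus strand) fell with conversion. It had 40.9 and 39.1 CPM at 0 h, 19.5 and 21.0 in the control and 19.6 and 21.7 in the depleted libraries. Control libraries were lower than 0 h libraries by a log2 fold change of -0.98 (SE 0.097, adjusted p = 2.11e-13), a fold of 0.508. Between depleted and control libraries, which overlapped, the difference was 0.03 (95% interval -0.190 to 0.245, adjusted p = 0.874).

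Per kb of exon the 3 ORMDL genes together were at 24.3 ± 0.732 CPM per kb at 0 h, 22.7 ± 0.142 in the control and 25.6 ± 1.10 in the depleted libraries (SD, n = 2). Within this sum the shares of ORMDL1 and ORMDL3 lay close at 0 h and far apart at 96 h. ORMDL3 made up 45.8% and 42.0% at 0 h, 23.0% and 24.6% in the control and 21.1% and 21.9% in the depleted libraries. ORMDL1 took 39.1% and 42.2%, then 59.4% and 59.2%, then 62.2% and 59.5%. ORMDL2 stayed between 15.0% and 18.7% in all 6 libraries. With the longest transcript as the length, the mean shares were 47.7%, 26.6% and 24.0% for ORMDL3 and 39.1%, 58.5% and 60.3% for ORMDL1. Per kb of exon, the ORMDL sum divided by SPTLC2 was 4.03 ± 0.214 at 0 h, 2.13 ± 0.0191 in the control and 0.941 ± 0.0535 in the depleted libraries. Divided by SPTLC1 it was 4.72, 3.09 and 3.57, so that the step between control and depleted libraries went the other way. The ratio of the ORMDL sum to SPTLC2 carries the rise for which SPTLC2 was chosen and was not tested.

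**Figure D2:**
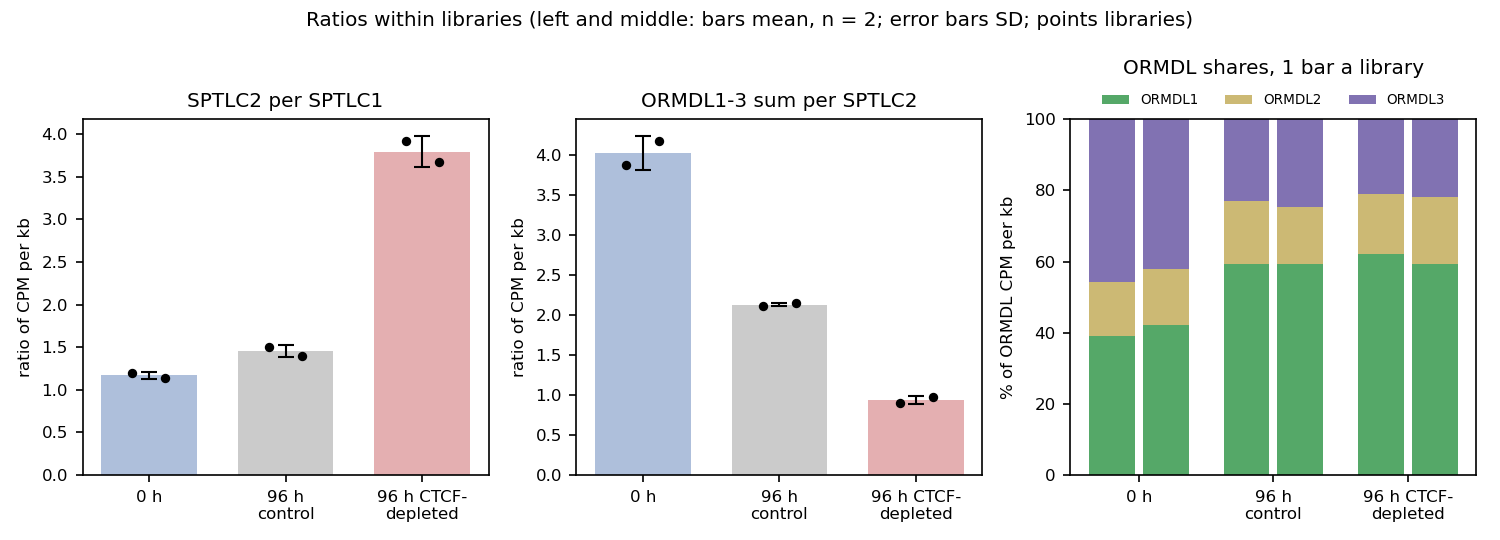
Ratios of CPM per kb of exon within each library: SPTLC2 to SPTLC1 (left), the sum of ORMDL1, ORMDL2 and ORMDL3 to SPTLC2 (middle), with bars for the mean of 2 libraries, error bars for the SD and points for libraries, and each ORMDL gene's percentage of the ORMDL sum with 1 bar per library (right). The ratio of the ORMDL sum to SPTLC2 went from 4.03 at 0 h to 0.941 in the depleted libraries, and ORMDL1 held the largest ORMDL share in all 4 libraries at 96 h. Both ratios with SPTLC2 rest on the libraries that chose it and were not tested.

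The ceramide synthases differ in the fatty acids they attach: CERS2 prefers very long chains, and CERS5 and CERS6 prefer palmitate. CERS2 (chr1:150960583-150975003, minus strand) had 109.4 and 111.1 CPM at 0 h, 128.0 and 129.4 in the control and 148.1 and 138.4 in the depleted libraries. The groups did not overlap, but the steps were small, with log2 fold changes of 0.15 with depletion (SE 0.058, adjusted p = 0.0282) and 0.22 between control and 0 h (adjusted p = 0.000661). CERS6 (chr2:168456249-168775134, plus strand) had 138.5 and 144.5, 185.6 and 197.9, and 222.9 and 227.0 CPM in the same order. It too was separate in each group, though separation of control from 0 h was common over all genes. Its log2 fold change with depletion was 0.23 (SE 0.050, 95% interval 0.130 to 0.331, adjusted p = 0.000163). Between control and 0 h it differed by 0.44 (adjusted p = 6.95e-11). Depleted libraries exceeded 0 h libraries by 0.67, a call past both thresholds (adjusted p = 1.35e-17).

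CERS5 (chr12:50129289-50167533, minus strand) rose with conversion and showed no further step. It had 24.1 and 23.6 CPM at 0 h, 42.7 and 40.9 in the control and 43.3 and 37.95 in the depleted libraries. The control was higher than 0 h by 0.81 on the log2 scale (SE 0.090, adjusted p = 7.5e-12). Depleted and control libraries overlapped and differed by -0.04 (95% interval -0.209 to 0.125, adjusted p = 0.735). Per kb of exon, CERS5 made up 7.37% of the sum of the 3 ceramide synthases at 0 h, 9.99% in the control and 8.61% in the depleted libraries. CERS2 made up 49.6%, 44.8% and 44.3%, and CERS6 took the remainder. These shares depend on the length used: per kb of the longest transcript, the CERS6 share was 28.7%, 30.25% and 32.0%. Per kb of exon, the sum rose in level from 47.9 ± 0.807 CPM per kb at 0 h to 61.9 ± 1.30 and 69.7 ± 1.61 in the 96 h groups, values with no test of their own.

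SGMS1, which makes sphingomyelin from ceramide, showed the largest rise with conversion among the 10 genes. It lies at chr10:50305586-50625163 on the minus strand and had 16.8 and 18.2 CPM at 0 h, 42.3 and 42.1 in the control and 49.5 and 58.3 in the depleted libraries. Control libraries were higher than 0 h libraries by a log2 fold change of 1.26 (SE 0.096, adjusted p = 7.05e-18), a fold of 2.40. Depleted libraries lay above the control by 0.35 (SE 0.081, 95% interval 0.191 to 0.516, adjusted p = 0.000309), which missed the fold threshold. The depleted replicates lay further apart than the control replicates, and the difference was 0.505 without depleted replicate 1 and 0.261 without depleted replicate 2.

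UGCG, which puts glucose on ceramide, went the other way with conversion. It spans chr9:111896814-111935369 on the plus strand. It had 25.9 and 32.3 CPM at 0 h, 19.2 and 14.6 in the control and 21.1 and 21.3 in the depleted libraries. Control libraries were lower than 0 h libraries (log2 fold change -0.80, SE 0.118, adjusted p = 2.41e-08). Depleted libraries lay above both controls but below both 0 h libraries, with a difference of 0.32 from the control (95% interval 0.075 to 0.573, adjusted p = 0.0332). Its control replicates differed by more than those of the other 9 genes relative to their mean, and the difference with depletion was 0.567 without control replicate 1 and 0.176 without control replicate 2. SGMS1 stood at 0.431 ± 0.0430 times UGCG per kb of exon at 0 h, 1.81 ± 0.338 times in the control and 1.81 ± 0.198 times in the depleted libraries. With the longest transcript as the length, these mean ratios were 0.646, 2.71 and 2.71.

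**Figure D3:**
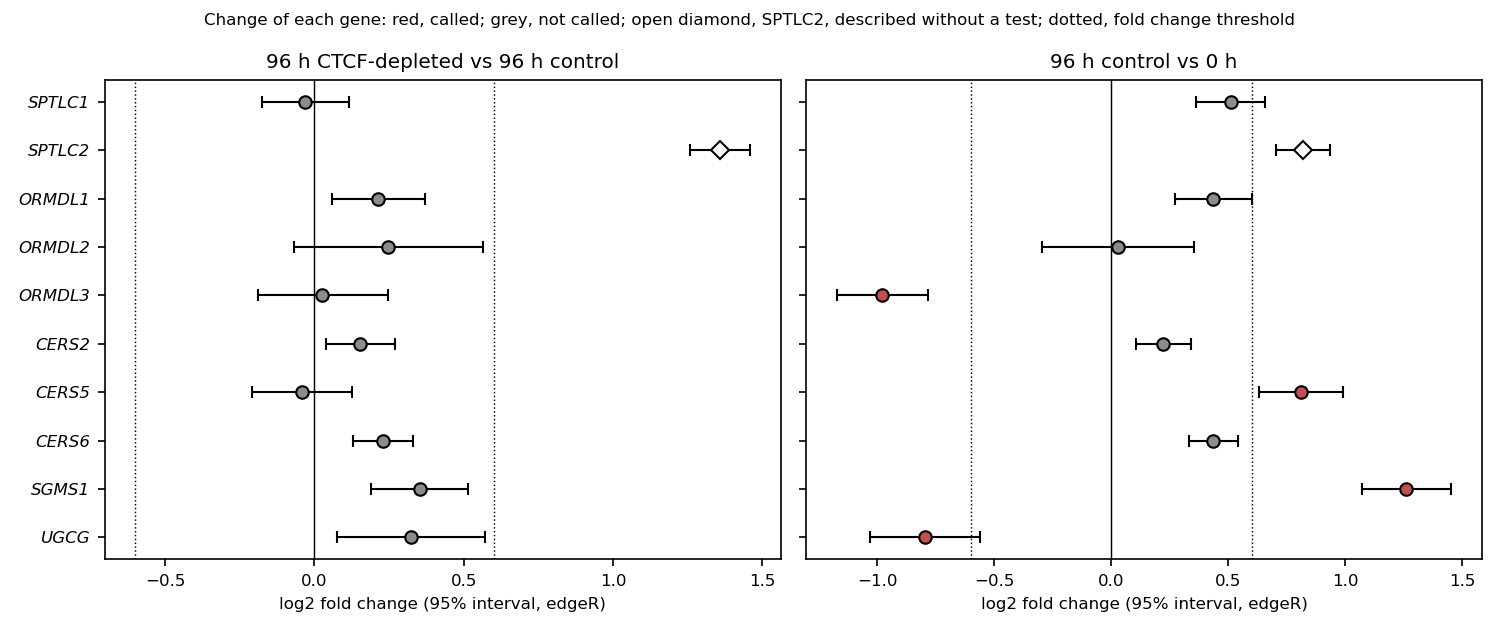
Log2 fold changes with 95% intervals (x axes) of the 10 genes between 96 h CTCF-depleted and 96 h control libraries (left) and between 96 h control and 0 h libraries (right), with dotted lines at the fold threshold of 0.6, red points for calls, grey points for genes not called and an open diamond for SPTLC2. The 9 tested genes lay between -0.04 and 0.35 on the left, and on the right SGMS1 and CERS5 were called higher and ORMDL3 and UGCG lower. The intervals of SPTLC2, which was chosen by its rise on the left, are descriptions and no test.

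With conversion alone, 2 of the 9 genes were called higher, 2 lower and 5 neither, where 25.4% of all genes were higher and 22.9% lower. An adjusted p under 0.01 with any fold was reached by 8 of the 9 genes, and by 68.2% of all genes. Their median log2 fold change was 0.44, against 0.02 over all genes. This comparison shares the control libraries with the one above. Between depleted and 0 h libraries, 4 of the 9 were called higher (ORMDL1, CERS5, CERS6 and SGMS1), 1 lower (ORMDL3) and 4 neither, where 27.2% and 25.2% of all genes were. SGMS1 had the largest of these differences at 1.62 (SE 0.093, adjusted p = 4.14e-23), and UGCG had -0.47 (adjusted p = 0.000201). ORMDL1 stood at 0.65 (adjusted p = 1.94e-10), close to the threshold.

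Ranked by level per kb of exon in control libraries, CERS6 at 27.99 ± 1.27 and CERS2 at 27.7 ± 0.213 CPM per kb came first and overlapped, followed by ORMDL1 at 13.4 ± 0.0582 and SPTLC2 at 10.6 ± 0.0287. SPTLC1 (7.33), SGMS1 (6.57), CERS5 (6.18) and ORMDL3 (5.40) came next without overlap between neighbours, and ORMDL2 at 3.83 and UGCG at 3.70 overlapped at the end. In the depleted libraries SPTLC2 stood at 27.2 ± 0.386 CPM per kb and took the place after CERS6 (32.8 ± 0.425) and CERS2 (30.8 ± 1.48), without overlap. At 0 h, SPTLC2 at 6.03 ± 0.138 overlapped with UGCG at 6.37 ± 0.996, and SGMS1 was last at 2.73 ± 0.155. With the longest transcript as the length, CERS2 came first in the control at 50.6, and SPTLC2 at 41.7 passed CERS6 in the depleted libraries.

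ORMDL1, ORMDL2 and CERS2 overlap a counted gene on the opposite strand, PMS1 by 280 bases, DNAJC14 by 920 bases and SETDB1 by 4162 bases. The kit keeps strand, but the strand setting of the counting is not given in the sources used here, so that reads of these partners may be included. The coding sequences of the ORMDL genes were 69.0% to 74.0% identical, with no shared run over 17 bases between their transcripts. Those of the ceramide synthases were 56.0% to 65.7% identical, with runs of at most 17 bases. SPTLC1 and SPTLC2 were 47.8% identical, and their transcripts shared a run of 39 bases.

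The pathway beyond these genes was read from 64 further sphingolipid genes, of which 49 were tested. With depletion, 2 were called higher, 2 lower and 45 neither, compared with 5.41% and 7.03% of all genes, and the median log2 fold change was -0.03, as over all genes. Any fold at an adjusted p under 0.01 was found in 13 of the 49, where 29.4% of all genes were. GLTP, which moves glycolipids between membranes, had 309 and 291 counts in the control and 439 and 464 in the depleted libraries, a log2 fold change of 0.62 (SE 0.089, adjusted p = 5.44e-08) just past the threshold. UGT8, the galactosylceramide synthase, fell from 99 and 83 to 35 and 27 counts, a log2 fold change of -1.52 (SE 0.211, adjusted p = 2.69e-08). UGT8 had been at 307 and 401 counts at 0 h, so that it was lower at each step.

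The other calls were less stable. SPNS2, an exporter of sphingosine 1-phosphate, had 56 and 40 counts in the control and 27 and 16 in the depleted libraries (log2 fold change -1.12, SE 0.294, adjusted p = 0.00158). Without control replicate 1 the adjusted p was 0.0836, without depleted replicate 2 it was 0.0887, and DESeq2 gave 0.0381. DEGS2, a ceramide desaturase and hydroxylase, had 5 and 2 counts in the control and 15 and 13 in the depleted libraries (log2 fold change 1.99, SE 0.624, adjusted p = 0.00813). It passed both thresholds in 2 of the 8 alternative fits that gave it an adjusted p, and leaving out any library at 96 h gave an adjusted p from 0.0321 to 0.139. Without control replicate 1 or either depleted replicate, 1 gene of the list was called higher in place of 2, and without control replicate 1 or depleted replicate 2, 1 was called lower in place of 2. KDSR, the reductase after serine palmitoyltransferase, had a log2 fold change of 0.02 (adjusted p = 0.911). DEGS1, the desaturase that completes ceramide, had 0.42 (adjusted p = 0.000257), below the fold threshold, which it passed in 1 of 10 alternatives, without control replicate 2 (0.63, adjusted p = 0.000114). Both genes are named here for their step and not by size.

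Conversion moved the wider list far more, with 20 of the 49 called higher and 8 lower, where 25.4% and 22.9% of all genes were, and a median log2 fold change of 0.57. The largest rise was in B3GNT5, which starts the lacto-series of glycolipids, from 4 and 5 counts at 0 h to 558 and 439 in the control (log2 fold change 6.81, adjusted p = 6.72e-36). SMPD1, the acid sphingomyelinase of lysosomes, rose from 7 and 12 to 118 and 123 counts (3.71 on the same scale, adjusted p = 1.85e-18). S1PR3, a receptor for sphingosine 1-phosphate, rose from 5 and 21 to 162 and 118 counts (3.48, adjusted p = 8.59e-18), a difference of 2.99 without 0 h replicate 1 and 4.54 without 0 h replicate 2. PSAP, the precursor of the saposins that present lipids to lysosomal enzymes, rose from 1437 and 1795 to 16700 and 16133 counts (3.40, adjusted p = 7.62e-50). SMPDL3B, a phosphodiesterase related to SMPD1, rose from 3 and 4 to 34 and 25 counts (3.09, adjusted p = 3.06e-07). With depletion none of these 5 genes was called, at log2 fold changes from -0.39 (B3GNT5, adjusted p = 0.00051) to 0.37 (SMPD1, adjusted p = 0.0573).

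By step, the 12 genes of glycosphingolipid breakdown had 9 called higher and 1 lower with conversion, with a median of 1.08, and 0 called with depletion, with a median of 0.00. The 7 tested genes of the remaining de novo synthesis had 1 higher and 1 lower with conversion and a median of 0.09. The 1 called higher was RTN4 (0.81, adjusted p = 4.71e-22) and the 1 called lower was SPTLC3, so that KDSR, DEGS1, DEGS2, CERS4 and SPTSSA were not called. The list of sphingomyelin and ceramide breakdown had 4 of 8 higher and 1 lower, and that of sphingosine 1-phosphate had 3 of 10 higher and 1 lower. In the list of ceramide transport and head groups 1 of 7 was higher and 3 were lower, and in glycosphingolipid synthesis 2 of 5 were higher and 1 was lower. Over all genes 25.4% were higher and 22.9% lower with conversion, close to the shares of some of these lists. With depletion, the medians were 0.13 for de novo synthesis, -0.03 for ceramide transport and head groups and -0.35 for glycosphingolipid synthesis. They were -0.07 for sphingomyelin and ceramide breakdown and -0.06 for sphingosine 1-phosphate, against -0.03 over all genes. Calls with depletion were DEGS2, GLTP, UGT8 and SPNS2, as given above. These lists hold genes that macrophages are known to express, and the macrophage markers summed to 132.8 to 150.8 CPM at 0 h and 6672 to 6900 CPM in the control.

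**Figure D4:**
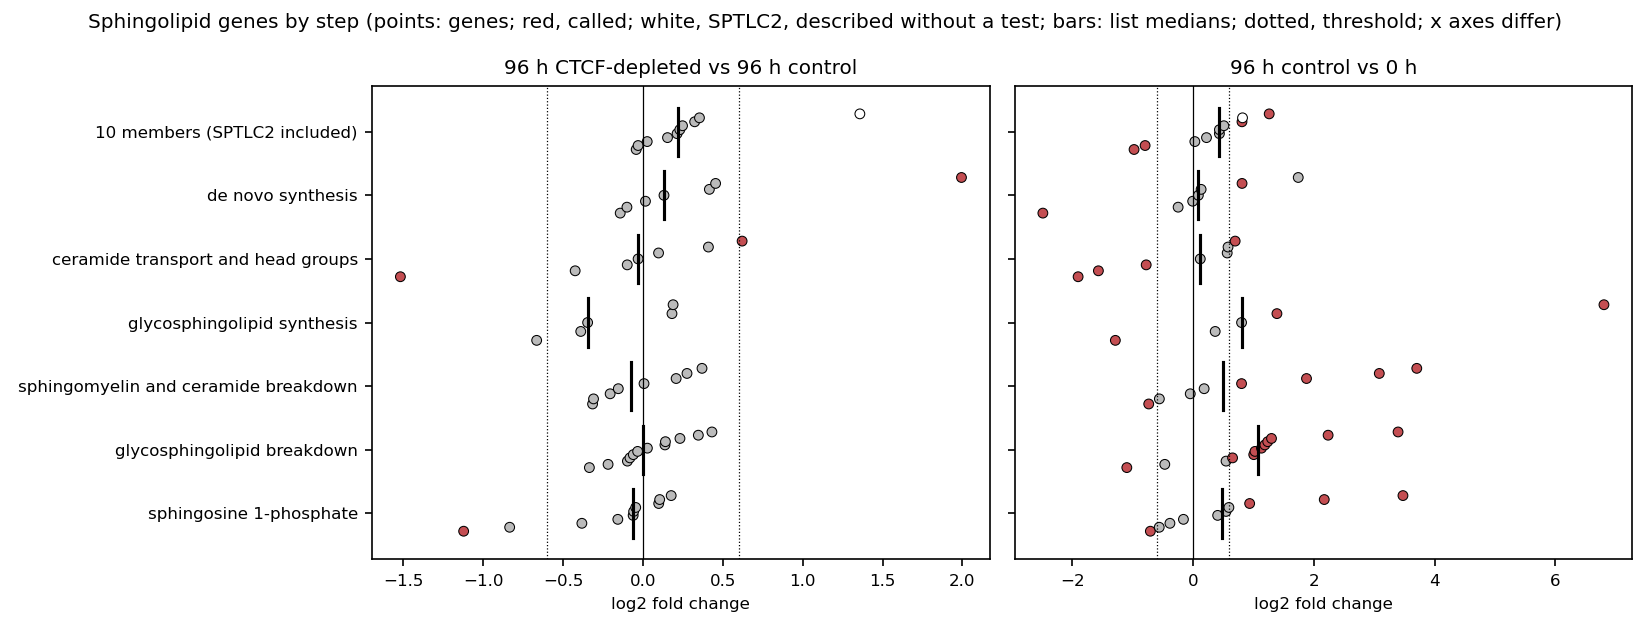
Log2 fold changes (x axes, different scales) of the 10 genes and of the 6 lists of further sphingolipid genes (rows) between 96 h CTCF-depleted and 96 h control libraries (left) and between 96 h control and 0 h libraries (right), with points for tested genes, red for calls, white for SPTLC2, short bars for medians and dotted lines at 0.6. On the left, SPTLC2 at 1.36, GLTP, UGT8, SPNS2 and DEGS2 stand past the lines with few other genes, and on the right 9 of the 12 genes of glycosphingolipid breakdown were called higher.

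The genes around SPTLC2 were compared because CTCF shapes contacts along a chromosome. Within 500 kb of its gene body lay 19 other symbols of the table, of which 14 were tested. With depletion, 1 was called higher and 1 lower, and the median log2 fold change was -0.03. This is close to the 5.41% and 7.03% of all genes called higher and lower. ISM2, which lies 7.2 kb beyond the 3′ end of SPTLC2, had 0 counts in every library. On that side AHSA1, a co-chaperone of HSP90 at 36.5 kb, had a log2 fold change of -0.04 (adjusted p = 0.736), and VIPAS39, a vesicle trafficking gene at 48.0 kb, had -0.08 (adjusted p = 0.51). NOXRED1 at 0.00, SAMD15 at 0.74 (adjusted p = 0.331, 4 to 17 counts at 96 h), TMED8 at -0.02, GSTZ1 at 0.06, POMT2 at 0.50 (adjusted p = 0.0148) and TMEM63C at 0.14 followed outwards, none of them called.

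CIPC, an inhibitor of the circadian factor CLOCK, lies 388.7 kb away on the same side. It had 189 and 188 counts in the control and 317 and 366 in the depleted libraries, a log2 fold change of 0.89 (SE 0.107, adjusted p = 5.57e-10). It had been at 256 and 360 counts at 0 h, and thus was lower in the control than at 0 h (-0.65, adjusted p = 4.16e-07), unlike SPTLC2. IRF2BPL at 477.3 kb had -0.60 (adjusted p = 1.91e-09), just inside the fold threshold, and was called without depleted replicate 2 (-0.61, adjusted p = 1.78e-09).

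On the other side, ALKBH1, a nucleic acid demethylase, is the next tested gene beyond the start of SPTLC2, at 55.8 kb. It had 207 and 234 counts in the control and 145 and 127 in the depleted libraries, a log2 fold change of -0.67 (SE 0.135, adjusted p = 5.23e-05). Without control replicate 2 the difference was -0.51 (adjusted p = 0.0149) and without depleted replicate 2 it was -0.54 (adjusted p = 0.00763), the first short of both thresholds and the second of the fold threshold. SLIRP, a mitochondrial RNA-binding protein, had -0.20 (adjusted p = 0.146), the splicing factor SNW1 had -0.24 (adjusted p = 0.00258) and ADCK1 had -0.12 (adjusted p = 0.649).

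**Figure D5:**
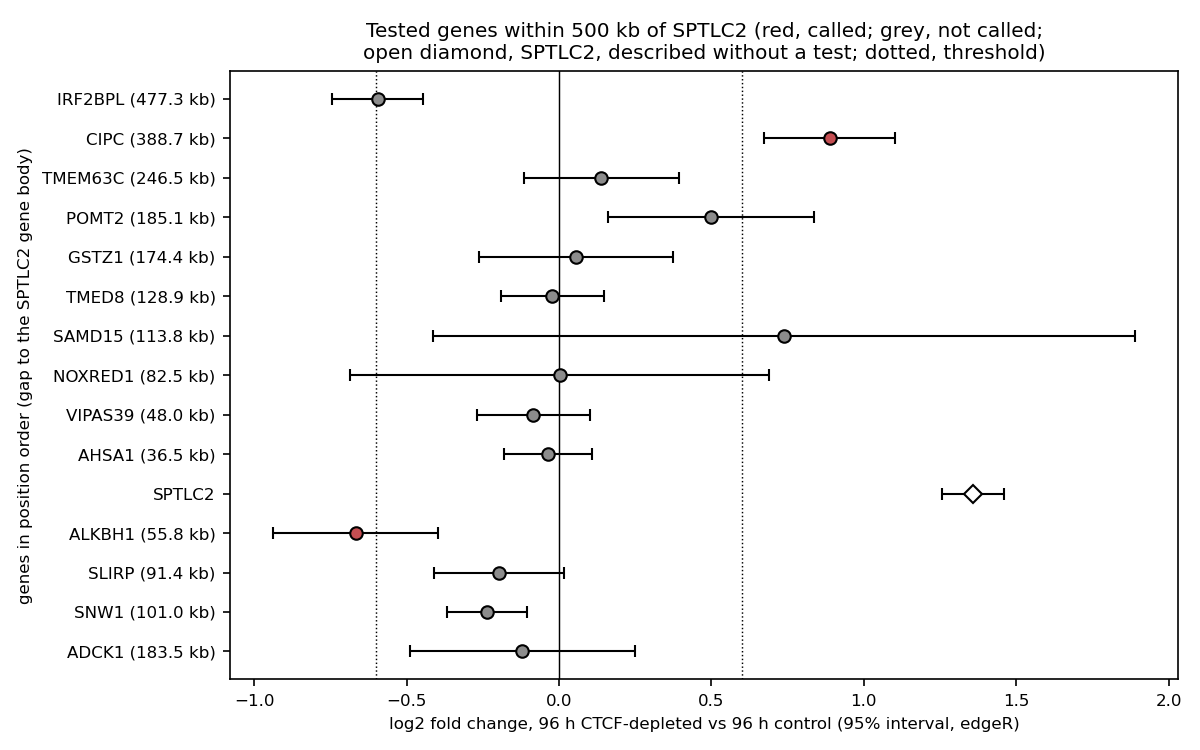
Log2 fold changes between 96 h CTCF-depleted and 96 h control libraries with 95% intervals (x axis) for SPTLC2 and the 14 tested genes within 500 kb, in position order with the gap to the SPTLC2 gene body in kb (y axis), dotted lines at 0.6, red points for calls and an open diamond for SPTLC2. CIPC at 0.89 and ALKBH1 at -0.67 were called, on opposite sides of SPTLC2, and the nearest tested gene, AHSA1, was at -0.04. The interval of SPTLC2, which was chosen by this difference, is a description and no test.

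Among the 14757 other genes tested, those most like SPTLC2 over the 6 libraries were found by the distance between log2 CPM values centred on each gene's mean, as a description over libraries that include those that chose SPTLC2. The nearest was DFNB31, the older symbol of the whirlin gene, at a distance of 0.186, with 22 and 20 counts in the control and 55 and 58 in the depleted libraries. GPR137B, a lysosomal membrane protein, followed at 0.334, with 93 and 114 counts at 0 h, 224 and 218 in the control and 516 and 532 in the depleted libraries. CCDC7 at 0.347, SYCP2 at 0.350 and NR1H3, which encodes the liver X receptor alpha, at 0.364 completed the first 5, and the median distance over all genes was 2.37. Of the members, SGMS1 was the closest at rank 329, followed by CERS6 at rank 1967, ORMDL1 at 2065 and CERS5 at 2302. SPTLC1 stood at rank 3345, CERS2 at 3495 and ORMDL2 at 4120, and UGCG at 9264 and ORMDL3 at 11301 were the farthest.

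Indole compounds such as IAA can bind the aryl hydrocarbon receptor (AHR), and a list of 6 AHR targets was therefore measured in the same libraries. The list summed to 22.2 to 23.0 CPM at 0 h, 42.5 to 44.5 in the control and 60.7 to 63.6 in the depleted libraries, most of it from TIPARP. CYP1B1 and ALDH1A3 had 0 counts in every library, CYP1A1 had at most 5 counts, and 2 of the 6 were tested. CYP1A1 had 0 and 3 counts in the control and 1 and 0 in the depleted libraries. AHRR had 4 and 6 counts at 0 h, 1 and 3 in the control and 3 and 4 in the depleted libraries. TIPARP had 418 and 422 counts in the control and 617 and 583 in the depleted libraries, a log2 fold change of 0.55 (SE 0.079, adjusted p = 7.23e-08), below the fold threshold. Over all genes, 12.0% were higher with depletion at an adjusted p under 0.01. TIPARP had also risen between 0 h and the control, without IAA, by 0.97 (adjusted p = 4.11e-14). The other tested target, NQO1, had 63 and 52 counts in the control and 66 and 72 in the depleted libraries (0.29, adjusted p = 0.308). The part of AHR in the values of SPTLC2 was not tested.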

How the data were processed

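RNA-seq was measured in 6 libraries of total RNA after depletion of ribosomal RNA. The count values are raw counts per gene made by the authors, as deposited: per the labels and the methods, reads were aligned to hg38 with STAR 2.6.1d and counted over exons with featureCounts 2.0.6, without normalization. Annotation release and strand setting are not given in the sources used here, and reads were not reprocessed. Intervals from counts of amplified reads without molecular identifiers cover only the spread between these libraries. The test was edgeR 4.0.16 under R 4.3.3: filterByExpr, TMM scaling and 1 quasi-likelihood model of all 6 libraries with condition as the only term, with Benjamini-Hochberg adjustment over the 14758 genes tested and the thresholds of the study. CPM used TMM-scaled library sizes. The members, lists and tests were chosen with earlier results of these data known. Ratios between members, motifs other than that of CTCF and the values of genes named for their step were chosen after seeing the data.

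Named were all members, further sphingolipid genes called with depletion, the 6 with the largest absolute log2 fold change among those called between control and 0 h, tested genes within 500 kb of SPTLC2, and the 5 genes closest to SPTLC2 in centred log2 CPM (prior count 2). The tested genes of de novo synthesis were also named, to show which of them was called with conversion. Positions and exon lengths came from GENCODE release 44, joined to 79.0% of the symbols by present or earlier names; promoters came from RefSeq. With 2 libraries a group, a permutation test could not fall below 0.333 and none was made. Alternatives were DESeq2 1.42.0, RLE scaling, other filters and thresholds, a fit of 4 libraries, a replicate block and leaving out each library. Plots were made with matplotlib 3.10.9.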

Additional observations from a re-analysis of the deposited data

How the results depend on the processing

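Over 300 alternative values of the members' log2 fold changes, 290 kept their direction, 0 gained or lost a call by adjusted p and fold together, and 10 turned in sign, all of genes with a difference near 0. They include 10 values of SPTLC2 in each comparison, which share libraries with the choice of this gene and are no support for it. On the adjusted p alone, SGMS1, CERS6, CERS2, ORMDL1 and UGCG crossed 0.01 with depletion under some alternatives, and 1 to 4 members were then higher in place of 2. With depletion the genes that turned in sign were SPTLC1 (0.002 without a filter and 0.003 in the fit of 4 libraries, and between -0.044 and 0.048 when 1 library was left out), ORMDL3 (-0.015 to 0.135) and CERS5 (-0.101 to 0.081). Between control and 0 h the gene that turned was ORMDL2 (-0.009 without a filter and -0.064 to 0.084 when 1 library was left out). The count of members other than SPTLC2 called higher with depletion went from 0 to 5 at an adjusted p under 0.05 with no fold threshold. That of the wider list went from 2 to 1 without a filter, with at least 10 counts in every library, with DESeq2, which gave DEGS2 no adjusted p, with the replicate block and at an absolute log2 fold change over 1, to 9 at an adjusted p under 0.05, and to 1 to 2 without 1 library. The count called lower went from 2 to 1 with DESeq2, to 7 at an adjusted p under 0.05 and to 1 to 2 without 1 library. Between control and 0 h, members called higher went from 2 to 6 at an adjusted p under 0.05 and to 1 at a log2 fold change over 1, members called lower from 2 to 0 at a log2 fold change over 1, and the wider list called lower from 8 to 5. Between depleted and 0 h, the fold threshold of 1 moved members called higher from 4 to 1, members called lower from 1 to 0 and the wider list called higher from 25 to 16, and 2 members were lower at an adjusted p under 0.05. Moves under another threshold follow from that threshold, and those with at least 10 counts in every library follow from the genes left out; the cause of the others was not tested. DESeq2 called 559 of all genes higher and 721 lower with depletion, against 798 and 1038. The replicate numbers mark no shared batch in the labels, and differences between replicates 1 and 2 correlated by -0.0294 to 0.0109 across groups, so that the replicate block served as a check only; it changed no call of a member. Low counts limit DEGS2, SPNS2 and SAMD15 most.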
